A study of Mus musculus with 6 samples.

Results

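Thrsp and Mid1ip1 encode a pair of small related proteins that regulate fatty acid synthesis, and the open chromatin peaks assigned to them were compared between refed and fasted mouse liver. The members were the peaks whose nearest gene start, as annotated in the authors' table, was that of Thrsp or Mid1ip1. There were 11 such peaks of 74076 in all, 6 for Thrsp and 5 for Mid1ip1. Accessibility was measured by ATAC-seq, which reads out where a transposase can insert adapters into chromatin, on fresh liver of 8-week-old males of the inbred strain C57BL/6J. The 3 refed libraries (replicates 5, 7 and 8) came from mice fasted for 12 h from 10 am and then fed for 12 h on a high-sucrose diet (69% sucrose, 10% fat). The 3 fasted libraries (replicates 1, 3 and 4) came from mice without food for 12 h from 10 pm. Both groups were killed at 10 am, so the refed mice had also fasted, but earlier. Without a group refed on ordinary chow, the diet, the meal itself and its timing cannot be told apart. Whether libraries stand for separate animals is not stated. The p-values here rest on the spread between libraries, and limma draws its estimate of that spread in part from other peaks of similar level.

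Thrsp, the thyroid hormone responsive gene, is transcribed in liver and fat when carbohydrate, insulin or thyroid hormone is abundant. Its product takes part in the control of lipogenesis. In the rat gene, the carbohydrate response element bound by the ChREBP and Mlx factors lies upstream of the promoter, and thyroid hormone response elements lie farther upstream. Mid1ip1 encodes a homologue of the Thrsp protein that binds acetyl-CoA carboxylase, the enzyme that makes malonyl-CoA, and promotes its assembly into active polymers; the pair can form a heterodimer. Mid1ip1 was named for its binding to Mid1, a ubiquitin ligase of microtubules.

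The promoters are shown because a peak lies over the start of each gene and was higher in refed liver. Each line gives the 250 bases before the RefSeq gene start, 5′ to 3′ on the gene's strand, from GRCm38.p6. These are Thrsp at chr7:97417551-97417800, minus strand, and Mid1ip1 at chrX:10717115-10717364, plus strand. The peaks themselves are in mm9, another build, so the bases were not matched to peak positions. Capitals mark CCAAT and its reverse complement in Thrsp, and the reverse complement of GGGCGG in Mid1ip1.
Thrsp: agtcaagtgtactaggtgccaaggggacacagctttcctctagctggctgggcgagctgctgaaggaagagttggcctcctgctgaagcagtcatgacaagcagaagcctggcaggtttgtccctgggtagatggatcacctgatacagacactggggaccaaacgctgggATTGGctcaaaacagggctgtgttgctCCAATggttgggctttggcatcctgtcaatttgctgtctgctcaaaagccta
Mid1ip1: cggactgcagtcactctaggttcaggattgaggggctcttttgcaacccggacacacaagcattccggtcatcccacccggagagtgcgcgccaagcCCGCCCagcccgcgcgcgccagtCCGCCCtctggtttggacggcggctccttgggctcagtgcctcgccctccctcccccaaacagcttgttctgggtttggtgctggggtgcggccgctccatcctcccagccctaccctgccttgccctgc

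The Thrsp promoter held CCAAT once on the gene strand, beginning 52 bases before the start, and once on the other strand, 79 bases before it. CCAAT is the motif of the factor NF-Y, and 33.9% of 32851 RefSeq promoters of the same length held it on either strand. The Mid1ip1 promoter held GGGCGG, the motif of Sp1 and related factors, on the other strand at 153 and 130 bases before the start, against 32.7% of promoters with at least 1 match. CACGTG, an E-box, was not found on either strand in these windows and 6.02% of promoters held it. TATAAA, the TATA box, was not found either, against 12.4% of promoters. Likewise a direct repeat of AGGTCA with 4 bases between the copies, a thyroid hormone receptor motif, had no match in them, against 0.0152% of promoters. The Mid1ip1 window had 66.8% G and C with 17 CpG dinucleotides and the Thrsp window 53.6% with 2, against medians of 52.4% and 6 over all promoters.

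At Thrsp, 4 of 6 peaks were more open in refed liver and 0 were less open. The gain was greatest at the 3′ end of the gene, where accessibility was 7.71 times as high in refed as in fasted liver, and smaller at the promoter and at the first pair of peaks upstream of it. At Mid1ip1, 1 of 5 peaks was called, the promoter, with 1.38 times the fasted level. Calls were made by limma at a Benjamini-Hochberg adjusted p under 0.05 over all 74076 peaks. Of all 74076 peaks, 1.23% passed this rule, 0.802% higher and 0.427% lower.

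**Figure D1:**
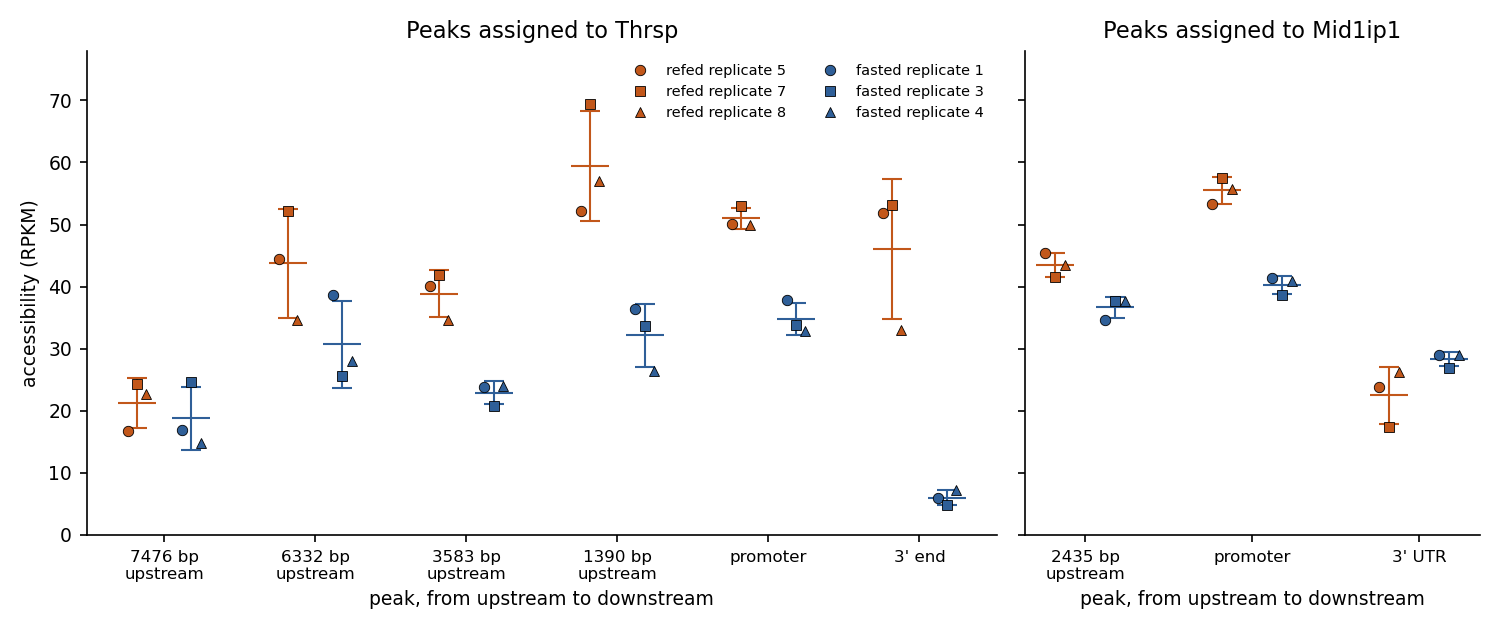
Accessibility in RPKM (vertical axis) of the 9 member peaks that held reads, ordered from upstream to downstream of each gene, in refed (orange, left of each pair) and fasted (blue) libraries; bars are mean ± SD, n = 3. At the Thrsp 3′ end the refed libraries sit between 33.1 and 53.1 RPKM and the fasted libraries between 4.79 and 7.20 RPKM.

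The Thrsp 3′ end peak is 1563 bp wide (mm9 chromosome 7, 104559735 to 104561297) and is annotated as the transcription end of Thrsp. Its centre lies 5544 bp downstream of the gene start. It had 51.9, 53.1 and 33.1 RPKM in refed replicates 5, 7 and 8, against 5.94, 4.79 and 7.20 RPKM in fasted replicates 1, 3 and 4. RPKM is a level per length, the reads per kilobase of peak scaled to the reads of the library that fell in peaks. The groups did not overlap, and refed replicate 8 was the lowest refed library. All refed values lay above all fasted values at 10.5% of all peaks. These values rest on 339, 269 and 242 reads in refed and 45, 24 and 46 reads in fasted libraries. The means were 46.1 ± 11.2 RPKM in refed and 5.98 ± 1.21 RPKM in fasted liver (SD, n = 3 each). The log2 change, refed minus fasted, was 2.93 ± 0.27 (SE; 95% interval 2.35 to 3.52; limma adjusted p = 0.000617). It ranked 9 by log2 change among all 74076 peaks and 2 among the 1080 peaks annotated as a transcription end, of which 1.48% were called higher.

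The promoter peak of Thrsp (chromosome 7, 104565677 to 104566451) covers the gene start, from 391 bp upstream to 383 bp downstream. It had 50.0, 53.0 and 49.9 RPKM in refed replicates 5, 7 and 8, against 37.8, 33.8 and 32.8 RPKM in fasted replicates 1, 3 and 4. The groups did not overlap, and the refed libraries differed among themselves by less than the fasted ones. The promoter rose by 0.55 ± 0.11 on the log2 scale (SE, limma adjusted p = 0.0311). Its change ranked 262 among the 9220 promoter peaks, of which 0.293% were called higher, so most promoters with a larger log2 change did not pass.

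Upstream of Thrsp the peaks lie in intergenic sequence. The nearest (chromosome 7, 104567224 to 104567677), centred 1390 bp upstream, was the strongest Thrsp peak in refed liver. It had 52.2, 69.4 and 57.0 RPKM in refed replicates 5, 7 and 8, against 36.3, 33.7 and 26.4 RPKM in fasted replicates 1, 3 and 4. Its log2 change was 0.89 ± 0.14 (SE, limma adjusted p = 0.0129), with no overlap between the groups. The next (chromosome 7, 104569471 to 104569816), 3583 bp upstream, had 40.1, 41.9 and 34.6 RPKM in the refed and 23.8, 20.7 and 24.0 RPKM in the fasted libraries, in the same order. It rose by 0.76 ± 0.15 (SE, limma adjusted p = 0.0267), again without overlap. Whether either peak covers a mouse counterpart of the elements known from the rat gene was not tested.

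The 2 outermost peaks of Thrsp did not pass. The peak 6332 bp upstream had 44.5, 52.2 and 34.6 RPKM in refed replicates 5, 7 and 8, against 38.7, 25.6 and 28.0 RPKM in fasted replicates 1, 3 and 4. Here fasted replicate 1 lay above refed replicate 8, and the difference was 0.51 on the log2 scale (95% interval 0.13 to 0.90; limma adjusted p = 0.193). The peak 7476 bp upstream had 21.2 ± 4.02 RPKM in refed and 18.8 ± 5.14 RPKM in fasted liver, with overlapping groups (SD, n = 3 each). Its difference of 0.19 had a 95% interval of -0.33 to 0.72 (limma adjusted p = 0.805). From the peak at 1390 bp outward, the fitted change at the 4 upstream peaks was thus 0.89, 0.76, 0.51 and 0.19. Their 95% intervals overlapped, at 0.58 to 1.20, 0.45 to 1.08, 0.13 to 0.90 and -0.33 to 0.72. This order did not hold without fasted replicate 4 (0.76, 0.80, 0.46 and 0.04) or fasted replicate 3 (0.93, 0.70, 0.39 and 0.41). It held with any other library left out, and a trend with distance was not tested.

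The order of the Thrsp peaks by mean level differed between the groups. In refed liver the peak 1390 bp upstream led with a mean of 59.5 RPKM, followed by the promoter with 51.0, the 3′ end with 46.1, the peak at 6332 bp with 43.8, that at 3583 bp with 38.9 and that at 7476 bp with 21.2 RPKM. In that order each peak's libraries overlapped those of the next, except for the last pair. In fasted liver the promoter led with 34.8 RPKM, followed by the peaks at 1390, 6332, 3583 and 7476 bp with 32.1, 30.7, 22.9 and 18.8 RPKM, and the 3′ end stood last with 5.98 RPKM, below every fasted value of the other peaks. Here too neighbours in the order overlapped, except the peak at 6332 bp with that at 3583 bp and the last pair. Apart from the 3′ end, only the promoter and the peak at 1390 bp changed places, and their libraries overlapped in both groups.

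The 3′ end peak took 42.9% (95% Wilson interval 39.5 to 46.4), 39.8% (36.2 to 43.5) and 33.2% (29.8 to 36.7) of all reads in the 6 Thrsp peaks in refed replicates 5, 7 and 8. In fasted replicates 1, 3 and 4 it took 10.1% (7.66 to 13.3), 9.45% (6.43 to 13.7) and 14.4% (11.0 to 18.6). These intervals cover counting error only. Per length, the 3′ end had 1.04, 1.00 and 0.663 times the level of the promoter in refed replicates 5, 7 and 8, against 0.157, 0.142 and 0.219 times in fasted replicates 1, 3 and 4. The 2 peaks thus stood at about the same height in refed replicates 5 and 7. The change at the 3′ end exceeded that at the promoter by 2.38 on the log2 scale and that at the peak 1390 bp upstream by 2.04. Since the 3′ end was taken as the Thrsp peak with the smallest p, these differences are descriptions, with no test.

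**Figure D2:**
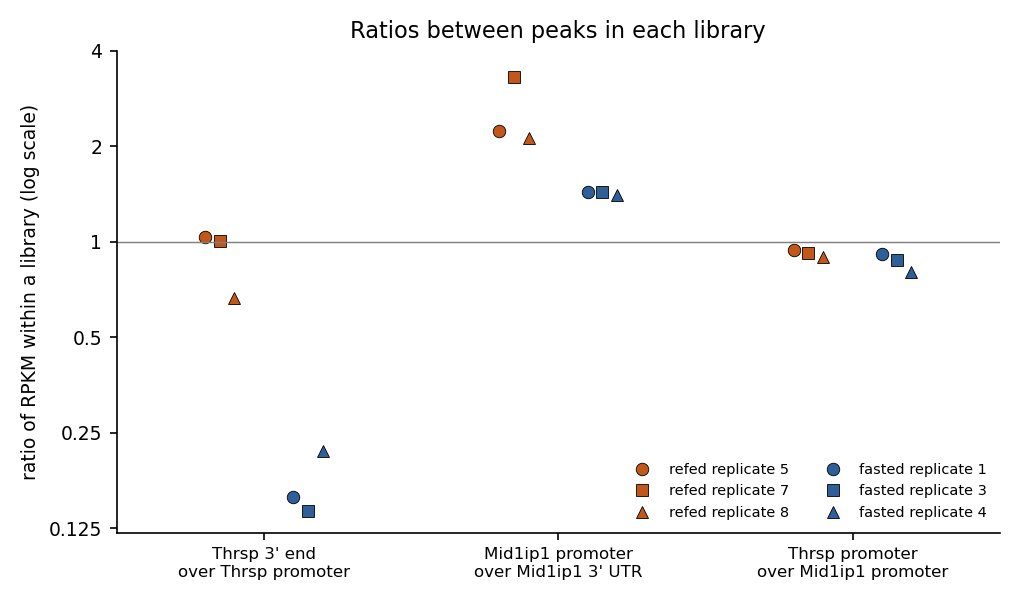
Ratio of the RPKM of 2 peaks within each library (vertical axis, log scale) for 3 pairs of peaks, refed libraries in orange and fasted in blue. The 3′ end of Thrsp is at 0.663 to 1.04 of its promoter in refed and at 0.142 to 0.219 in fasted libraries, while the ratio of the Thrsp to the Mid1ip1 promoter overlaps between the groups.

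At Mid1ip1 the promoter was the one peak that limma called. The promoter peak (mm9 chromosome X, 10294106 to 10294937) covers the gene start, from 385 bp upstream to 446 bp downstream. It had 53.2, 57.5 and 55.7 RPKM in refed replicates 5, 7 and 8, against 41.4, 38.6 and 40.9 RPKM in fasted replicates 1, 3 and 4. The groups did not overlap, and the spread was small, with means of 55.5 ± 2.15 RPKM in refed and 40.3 ± 1.47 RPKM in fasted liver (SD, n = 3 each). It rose by 0.46 ± 0.10 on the log2 scale (SE, limma adjusted p = 0.0422). An intergenic peak 2435 bp upstream (chromosome X, 10291804 to 10292309) had 45.4, 41.5 and 43.5 RPKM in the refed and 34.6, 37.6 and 37.7 RPKM in the fasted libraries, in the same order. All refed values lay above all fasted values, as at 10.5% of all peaks, but the difference of 0.25 did not pass (95% interval 0.0040 to 0.49; limma adjusted p = 0.334).

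The peak in the 3′ UTR of Mid1ip1 (exon 2 of 2; chromosome X, 10296058 to 10296520) is centred 1798 bp downstream of the gene start. It had 23.8, 17.3 and 26.3 RPKM in refed replicates 5, 7 and 8, against 28.9, 27.0 and 29.1 RPKM in fasted replicates 1, 3 and 4. The refed values all lay below the fasted ones, refed replicate 8 only just, and the difference of -0.35 did not pass (95% interval -0.75 to 0.04; limma adjusted p = 0.412). The share of all peaks with every refed value below every fasted one was not counted. In each library the promoter was above the 3′ UTR, by 2.24, 3.32 and 2.12 times in refed replicates 5, 7 and 8, against 1.43, 1.43 and 1.41 times in fasted replicates 1, 3 and 4. The change at the promoter exceeded that at the 3′ UTR by 0.82 on the log2 scale, a description only, since this pair was chosen after its values were seen. No peak is annotated at the transcription end of Mid1ip1.

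The other 2 peaks assigned to Mid1ip1 lie in L1Md_T elements of the LINE family, 248236 and 249004 bp downstream of the gene start. They held 0 reads in all 6 libraries, which allows up to 3 reads per library, for counting error only. The table lists them at 0.9 reads, the authors' value for an empty peak, and their fitted difference of 0.0021 carries no measurement. Reads that match several copies of such an element may be missing, since the file headers state that unique reads were kept.

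The promoters of the pair stood at similar levels in every library. Per length, the Thrsp promoter had 0.940, 0.921 and 0.895 times the level of the Mid1ip1 promoter in refed replicates 5, 7 and 8, against 0.913, 0.876 and 0.803 times in fasted replicates 1, 3 and 4. Their changes differed by 0.09 on the log2 scale, with a pooled SD of 0.07 between libraries. A two-sided exact permutation test over the 6 libraries gave p = 0.2, where 3 against 3 cannot go below 0.1. Since this pair was added after the data were seen, the test cannot decide whether the promoters changed alike. The log2 change at the Thrsp 3′ end was 2.47 above that at the Mid1ip1 promoter, each the peak of its gene with the smallest p and so again given with no test.

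Around Thrsp, the called peaks were those assigned to Thrsp itself. Within 100 kb of its start lay 8 further peaks, assigned to the 5 genes Kctd21, Alg8, Ndufc2, Kctd14 and Ints4, of which limma and edgeR called 0 and DESeq2 0 of the 6 it gave an adjusted p; in limma 0 had an unadjusted p under 0.05. Limma called 1.23% of all 74076 peaks, and 10778 had an unadjusted limma p under 0.05. Calls at 0 of 8 peaks are thus near the share over all peaks, and do not set these peaks apart. The log2 changes of the 8 peaks ran from -0.40 to 0.62. The nearest, in exon 1 of 3 of Ndufc2, a gene of mitochondrial complex I, is centred 17279 bp downstream of the Thrsp start. It had 24.5, 23.2 and 23.1 RPKM in refed replicates 5, 7 and 8, against 21.6, 27.7 and 27.3 RPKM in fasted replicates 1, 3 and 4, with overlapping groups. The promoter of Ints4, a gene of the Integrator complex, differed by -0.13 (95% interval -0.35 to 0.09). Within 100 kb of the Mid1ip1 start there were 3 peaks, all assigned to Mid1ip1.

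**Figure D3:**
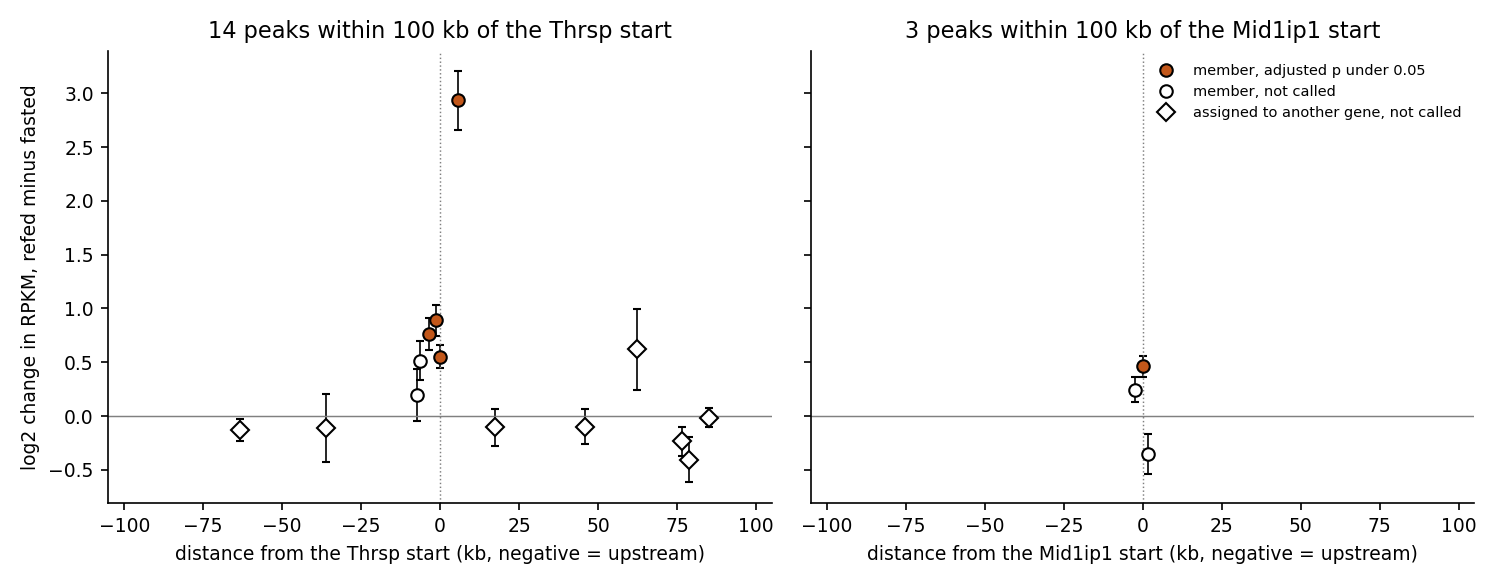
Log2 change in RPKM, refed minus fasted, with its standard error (vertical axis) against distance from the gene start in kb (horizontal axis) for all peaks within 100 kb of Thrsp and of Mid1ip1. The called peaks (filled) lie within 6 kb of either start, and the 8 peaks assigned to other genes near Thrsp (diamonds) were not called.

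The profile of the Thrsp 3′ end peak across the 6 libraries was most like those of 3 peaks in other parts of the genome, among 44480 peaks with a mean of at least 20 reads. Likeness was the root mean square difference in log2 RPKM after each peak's mean was subtracted, taken with 1 peak per gene. These were an intergenic peak assigned to Olfr988 (difference 0.30), a peak assigned to Sult4a1 (0.35) and an intergenic peak 416753 bp from the start of Trps1 (0.37). The peak assigned to Sult4a1 lies 7407 bp upstream of its start, in an intron of a transcript whose gene was not looked up. In this order the 3 peaks had 28.8 ± 5.51, 26.2 ± 5.65 and 21.3 ± 6.10 RPKM in refed liver, against 4.70 ± 0.65, 4.32 ± 0.37 and 4.09 ± 1.98 RPKM in fasted liver (SD, n = 3 each). For the Mid1ip1 promoter the most alike were peaks assigned to 1700028I16Rik, Rrm2 and Ly6e (0.038, 0.041 and 0.042), none of which was called by limma (adjusted p = 0.442, 0.116 and 0.148).

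Among 15 genes of lipogenic enzymes and partners, which take in Mid1 and Mid2 but not the pair, 11 had a higher peak and 0 a lower one by limma. Acss2, Mid1, Mid2 and Slc25a1 had none that passed. Their 101 peaks held 18 higher calls, 17.8%, with a median log2 change of 0.28, against 0.802% and a median of 0.0021 over all peaks. The list was drawn up with earlier results of these data known, so its count is a description. EdgeR called 25 of the 98 peaks it tested higher and 0 lower, against 2.58% and 1.43% of all peaks it tested. DESeq2 called 16 of 92 higher and 0 lower, against 1.04% and 0.616%. Limma with array weights called 35 higher and 2 lower, against 6524 and 3162 of all 74076 peaks. In the main analysis 42 had an unadjusted limma p under 0.05, as did 10778 of all peaks.

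Named examples by smallest p were peaks of Scd1, Pklr, Elovl6, Acaca and Elovl5. In intron 1 of Acaca, which encodes the acetyl-CoA carboxylase that the Mid1ip1 protein binds, a peak had 25.6 ± 1.85 RPKM in refed and 9.26 ± 1.08 RPKM in fasted liver (log2 change 1.47 ± 0.24 SE, limma adjusted p = 0.0150). A peak 8711 bp upstream of Scd1, the stearoyl-CoA desaturase gene, rose by 1.80 ± 0.17, and a peak of the liver pyruvate kinase gene Pklr, which lies within an exon of Hcn3, by 2.37 ± 0.26 (limma adjusted p = 0.000617 and 0.00144). The promoter of the elongase gene Elovl6 rose by 0.75 ± 0.12 and an intron peak of the elongase gene Elovl5 by 1.13 ± 0.20 (limma adjusted p = 0.0110 and 0.0178). Of the enzyme list, Scd1 alone had a peak annotated as its transcription end, and there the log2 change was 3.33 ± 0.33, beside 1.78 ± 0.18 at the Scd1 promoter (SE, limma adjusted p = 0.000846 and 0.00124). At Mid1 and Mid2, whose products are ubiquitin ligases of microtubules, limma and edgeR called 0 of 8 peaks and DESeq2 0 of the 6 it tested, none had an unadjusted limma p under 0.05 (0 of 8), and log2 changes ran from -1.17 to 0.58. Limma called 1.23% of all peaks, so 0 of 8 is near that share.

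Genes of factors known to act on Thrsp or Mid1ip1 held called peaks at shares near those of all peaks. All 19 had a peak, and of their 117 peaks limma called 1 higher and 1 lower, 0.855% each, against 0.802% and 0.427% of all peaks, and the median log2 change was -0.0011. The higher peak lies in intron 3 of 22 of Scap, whose product escorts SREBP factors, with 46.4 ± 11.1 RPKM in refed and 24.0 ± 1.92 RPKM in fasted liver (log2 change 0.93 ± 0.17 SE, limma adjusted p = 0.0201). The lower one lies in intron 1 of 9 of Rxra, a partner of the thyroid hormone receptor, with a log2 change of -0.64 ± 0.13 (limma adjusted p = 0.0357; edgeR adjusted p = 0.138). At Thra and Thrb, the thyroid hormone receptor genes, limma called 0 of 32 peaks, edgeR 0 of the 31 and DESeq2 0 of the 29 they tested, with 3 at an unadjusted p under 0.05. At Srebf1 and Mlxipl, which encode SREBP-1 and ChREBP, limma called 0 of 13 peaks, and 1 had an unadjusted limma p under 0.05. Of the 12 that each tested, DESeq2 called 0 and edgeR 1 higher, where edgeR called 2.58% of all peaks it tested higher. Over all peaks limma called 1.23%, so 0 calls in sets this small are near that share.

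Other genes that respond to thyroid hormone in liver did not share one direction. Among 10 genes, Gpd2 and Me1 had a higher peak, Klf9 and Pck1 had lower peaks and in 6 genes no peak passed; 2 of the 90 peaks were higher and 3 lower, 2.22% and 3.33%, against 0.802% and 0.427% of all peaks. The median log2 change of the 90 was -0.08. A peak 10061 bp upstream of Gpd2, the mitochondrial glycerol phosphate dehydrogenase gene, had 29.7 ± 10.9 RPKM in refed and 5.05 ± 1.25 RPKM in fasted liver (log2 change 2.52 ± 0.35 SE, limma adjusted p = 0.00620). The 5′ UTR peak of Me1, the malic enzyme gene, which is also in the lipogenic list, rose by 0.49 ± 0.10 (limma adjusted p = 0.0386). A peak at the transcription end of Pck1, a gluconeogenic gene, fell by 2.57 ± 0.21, and one 78231 bp upstream of Klf9 by 1.68 ± 0.25 (limma adjusted p = 0.000248 and 0.00856). The 4 peaks of Dio1, the hepatic deiodinase gene, ran from -0.33 to 0.15 and none was called by limma, edgeR or DESeq2, with 0 at an unadjusted p under 0.05. With 1.23% of all peaks called by limma, 0 of 4 is near that share.

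**Figure D4:**
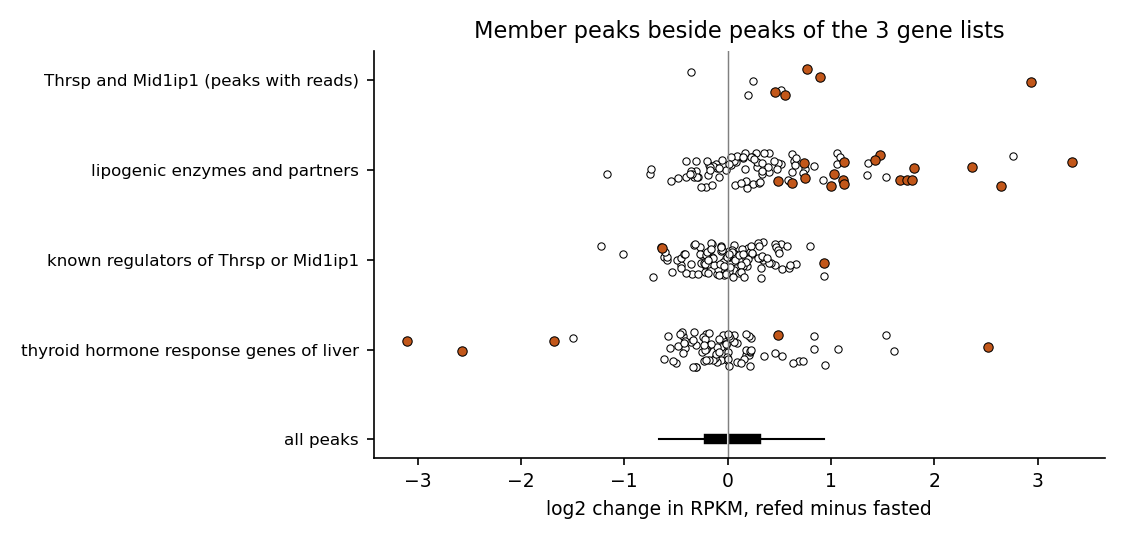
Log2 change in RPKM, refed minus fasted (horizontal axis), of the 9 member peaks with reads and of each peak of the 3 gene lists; filled points passed an adjusted p of 0.05 by limma, and vertical scatter is only for display. For all peaks the thick bar spans the middle 50% and the thin line the 5th to 95th percentile. Called member peaks and called peaks of lipogenic enzymes lie to the right of 0, while called peaks of thyroid hormone response genes lie on both sides.

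Reads within peaks numbered 3238712 to 4679316 in refed and 3205634 to 4850613 in fasted libraries, and the median peak held 19 to 33 reads. All 10 hepatocyte marker genes had a peak, with summed levels of 2322 to 2411 RPKM in refed and 2443 to 2720 RPKM in fasted libraries, without overlap. Limma called 9 of their 111 peaks lower in refed liver, at Alb, Apoa2 and Tat, and 1 higher, at Apoa1. These are 8.11% lower and 0.901% higher, against 0.427% and 0.802% of all peaks. All 8 adipocyte markers had a peak, with 438 to 501 RPKM in refed and 506 to 570 RPKM in fasted libraries. Of their peaks 2 of 27 (7.41%) were called lower, both at Plin1, and 7 of the 8 genes had no call. Endothelial markers, 8 of 8 with a peak, summed to 716 to 770 RPKM in refed and 668 to 684 RPKM in fasted libraries. Among their peaks 2 of 51 (3.92%) were called higher, at Cdh5 and Pecam1. The part of these markers in the results was not tested. Sums overlapped between the groups for Kupffer, stellate, cholangiocyte and lymphocyte markers, of which 3 of 8, 5 of 8, 5 of 7 and 4 of 9 genes had a peak; genes with none include Clec4f, Des, Krt19 and Cd3e. In whole tissue, a change in the share of a cell type and a change within its cells cannot be told apart.

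The gain at the Thrsp 3′ end was called in 14 of 15 alternative analyses, with a log2 change of 2.58 to 3.16. It was lost in limma run with a constant prior variance (adjusted p = 0.0678), where 0 peaks of the whole series passed. The peak 1390 bp upstream was called in 12 of 15, and was lost without refed replicate 8 (limma adjusted p = 0.0569), with a constant prior (0.129) and with quantile normalization (0.0654). The calls of the smaller gains rested on most of the libraries. The Thrsp promoter passed in 6 of 15 analyses and was lost without fasted replicate 3 or 4 or refed replicate 5, 7 or 8 (limma adjusted p = 0.0523, 0.126, 0.0826, 0.104 and 0.125). It was also lost with DESeq2 (adjusted p = 0.0792), and in limma with quantile normalization (0.0583), median centring (0.0503) or a constant prior (0.178). The Mid1ip1 promoter also passed in 6 of 15 and was lost without the same libraries (0.0729, 0.128, 0.0901, 0.125 and 0.167), as well as with DESeq2 (0.139), quantile normalization (0.0613), median centring (0.0974) or a constant prior (0.223). The peak 3583 bp upstream of Thrsp passed in 7 of 15 and was lost without fasted replicate 4 or refed replicate 5, 7 or 8 (0.0794, 0.0879, 0.102 and 0.0770). It was also lost with edgeR without its filter (0.0564), DESeq2 (0.233), quantile normalization (0.0663) or a constant prior (0.120). Fitted changes of these 3 peaks stayed at 0.51 to 0.61, 0.43 to 0.49 and 0.65 to 0.85. In the authors' deposited edgeR table, 5 member peaks are listed below an FDR of 0.05, the same 4 of Thrsp and the Mid1ip1 promoter. It lists 3314 of all 74076 peaks and rests on the same reads, so it is not independent of the calls here. The authors' deposited table gives the Thrsp 3′ end a log2 fold change of 2.92 (FDR 2.19e-36) and the Thrsp promoter 0.53 (FDR 0.00144). For the Mid1ip1 promoter the authors' deposited table gives 0.45 (FDR 0.00499).

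**Figure D5:**
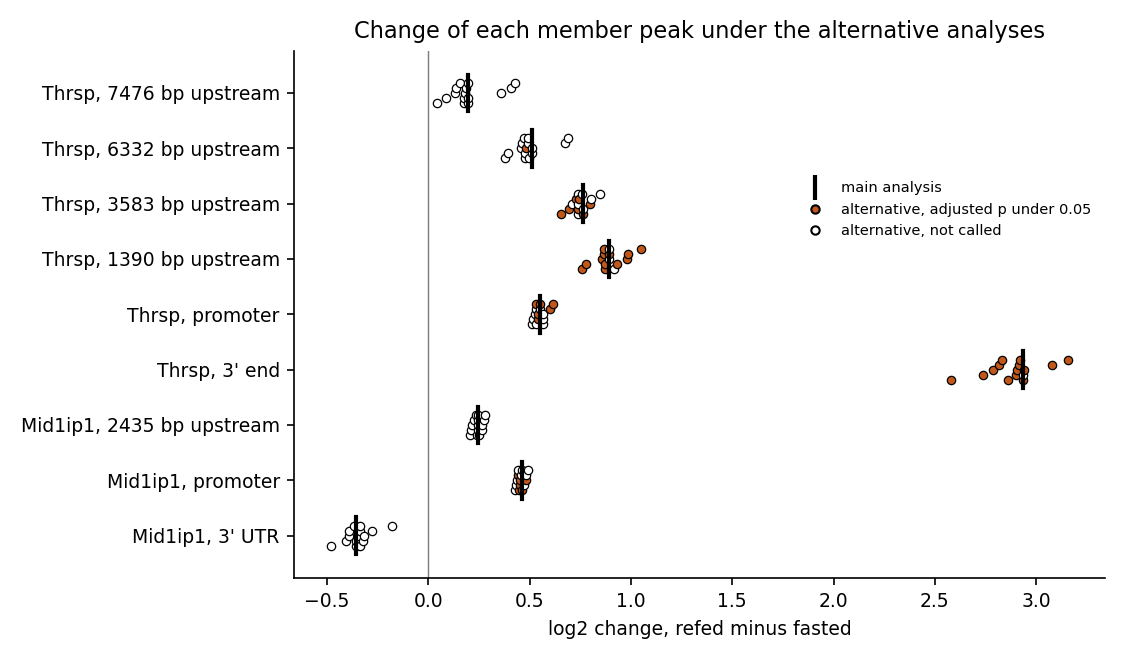
Log2 change, refed minus fasted (horizontal axis), of the 9 member peaks with reads in the main analysis (vertical bars) and in 15 alternative analyses (points, filled where the adjusted p was under 0.05; vertical scatter is only for display). The Thrsp 3′ end stays between 2.58 and 3.16, and no member peak with reads crosses 0.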

How the data were processed

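Libraries were grouped by the treatment in the labels. Per the submitters' processing notes, the tools included Bowtie2, MACS2 and HOMER, with mm9; for tool versions and any transposase shift the sources used here give nothing. Duplicates were removed, unique reads kept and peaks annotated by HOMER, per the file headers. The authors' table holds RPKM per peak, scaled to reads in peaks, with deposited columns of their log2 values beside them; empty peaks hold the value of 0.9 reads. Whole reads were recovered at a tolerance of 0.01 for 100.0% of values and matched the deposited counts at each of the 3314 peaks that the authors' edgeR table lists; that table also gives their p-values, FDR and log2 fold changes. The authors' deposited ratio, p-value and difference per peak in the RPKM table, and a table pooling replicates, were not used. Symbols of 91 peaks that a spreadsheet had changed were restored by Entrez ID from RefSeq.

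The main test was limma 3.58.1 (R 4.3.3; intensity trend, no filter, pseudocount or covariate) on log2 RPKM of all peaks. EdgeR 4.0.16 and DESeq2 1.42.0 were run on the recovered reads as alternatives. The steps were tested on simulated data. Pairs of peaks were compared by exact permutation of libraries with scipy 1.17.1. Members, lists and tests were chosen with earlier results of these data known. Named peaks were all member peaks, called peaks within 100 kb of either start, the 3 most alike peaks per gene and up to 5 called genes per list by p. Alternatives changed the tool, filter, normalization, variance prior, weights, pseudocount of 1 or libraries. Promoter sequences are RefSeq's, found for both genes.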

Additional observations from a re-analysis of the deposited data

How the results depend on the processing

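The limits are 3 libraries a group, few reads at low peaks and a scale set by reads in peaks. No paired analysis was possible because the groups share no replicate number. Thrsp peaks numbered 4 called of 6; DESeq2 called 2, limma without a trend 0 and quantile normalization 1, and leaving out 1 library gave 1 to 4 (2 without fasted replicate 4 or refed replicate 5 or 7, 1 without refed replicate 8). The 100 kb window around Thrsp gave the same counts, 2, 0, 1 and 1 to 4. For Mid1ip1, and for its window, 1 peak was called, against 0 with DESeq2, without a trend, with quantile normalization or with median centring, and 0 to 1 with 1 library left out (1 without fasted replicate 1 alone). Windows of 50 kb changed neither count. Over all peaks 910 were called (594 higher, 316 lower), against 2449 with edgeR, 2431 with edgeR without a filter, 0 without a trend (10454 at an unadjusted p under 0.05), 94 with quantile normalization, 1493 with median centring and 9686 with array weights, and 150 to 1175 with 1 library left out (229 without fasted replicate 4; 439, 322 and 150 without refed replicates 5, 7 and 8). For lipogenic genes 18 were called, against 0 without a trend, 4 with quantile normalization, 37 with array weights (35 higher, 2 lower) and 6 to 19 with 1 library left out (6 without refed replicate 7 or 8, 8 without fasted replicate 4). For the known regulators 2 were called, against 1 with DESeq2, 0 without a trend, 0 with quantile normalization, 19 with array weights and 0 to 2 with 1 library left out (0 without fasted replicate 4 or refed replicate 8, 1 without refed replicate 5 or 7). For thyroid hormone response genes 5 were called, against 9 with edgeR with or without its filter, 0 without a trend, 2 with quantile normalization, 14 with array weights and 3 to 5 with 1 library left out (3 without fasted replicate 4). With 1 library left out, the differences between peaks ran from 2.25 to 2.59 for the Thrsp 3′ end against its promoter, 2.34 to 2.70 against the Mid1ip1 promoter, 1.85 to 2.32 against the peak 1390 bp upstream, 0.61 to 0.94 for the Mid1ip1 promoter against its 3′ UTR and 0.04 to 0.13 for the 2 promoters; the last 3 of these 5 comparisons were added after the data were seen. The planned test of the Mid1ip1 promoter against its strongest peak could not be run, since the promoter is that peak. The Thrsp peak 6332 bp upstream passed with array weights alone (adjusted p = 0.0318). The cause of these differences was not tested.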
